A study of Mus musculus with 50 samples.

Results

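The Toll-like receptor genes of the mouse were followed in microglia sorted from the hippocampus. The members were named by gene symbol (Tlr1, Tlr2, Tlr3, Tlr4, Tlr5, Tlr6, Tlr7, Tlr8, Tlr9 and Tlr13), and all 10 were found among the 53700 genes counted. The study exposed male C57BL/6J mice to early-life stress (ELS) by limiting bedding and nesting material in the first postnatal days, and compared them with control (CTR) mice. Microglia were sorted as CD45int CD11b+ cells and their poly-A RNA was sequenced as 1 library per mouse, either at postnatal day 9 (P9) or in adulthood at postnatal day 200 (P200). Adult mice received an intraperitoneal injection 3 h before death, of either phosphate-buffered saline (PBS) or lipopolysaccharide (LPS, from E. coli O111:B4, at 1 mg/kg). At P9 there were 12 CTR mice (P9-CTR) and 13 ELS mice (P9-ELS). The adults were 7 CTR (P200-CTR-PBS) and 6 ELS mice (P200-ELS-PBS) after PBS, and 7 CTR (P200-CTR-LPS) and 5 ELS mice (P200-ELS-LPS) after LPS, which makes 50 libraries. A mouse is named by the number in its title, with a hyphen for the point. The total count per library ran from 5152838 to 42231258, with a median of 19960409.5.

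Toll-like receptors are membrane proteins of the innate immune system that bind molecules typical of microbes, and some also bind the cell's own nucleic acids. Among the members, those at the cell surface recognise lipids and proteins, whereas those in endosomes recognise RNA or DNA. Most signal through the adaptor MyD88, some through TRIF, towards NF-kB and interferon regulatory factors, and microglia, the resident macrophages of the brain, carry many of these receptors.

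The label of the cells was compared with marker genes. The summed level of 9 microglia markers was 46320 ± 5489 CPM (counts per 1e6 counts; SD, n = 12) in CTR and 49840 ± 5115 (n = 13) in ELS mice at P9, 78180 ± 2316 (n = 7) and 76730 ± 2517 (n = 6) in adults after PBS, and 69280 ± 3934 (n = 7) and 73190 ± 4474 (n = 5) in adults after LPS. Of the 7 neutrophil markers, Ly6g and Retnlg were at 0 in every mouse, whereas Cxcr2 had means of 14.2 (CTR) and 16.4 CPM (ELS) at P9. The T cell markers summed to at most 0.286 CPM in any mouse of P9-CTR, the group with the highest single value. Border-associated macrophage markers, by contrast, summed to 727.5 ± 126.1 CPM in P9-CTR (Mrc1 being the most abundant, at 711 CPM) and to 6.17 ± 2.34 CPM in P200-CTR-PBS.

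Some libraries stood apart from their group. Fewer than 16000 genes had a count in 3 libraries, the P9-ELS mice numbered 19-2 (15731 genes) and 19-3 (12482 genes) and the P200-CTR-PBS mouse 1-1 (12854 genes). Among the 9 members other than Tlr8, the P200-ELS-LPS mouse 11-2 had the lowest value of its group for 7, and its median deviation from the group median was -1.13 on the log2 scale. The same deviation was -1.37 in the P9-ELS mouse 19-2, -0.86 in 19-3 and -0.65 in the P9-CTR mouse 58-2.

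In P200-CTR-PBS microglia the members spanned a wide range of levels per length, taken as the union of their exons. Tlr13, an endosomal receptor for bacterial ribosomal RNA, was first at 174.5 ± 13.5 CPM per kilobase (SD, n = 7), followed by Tlr7, an endosomal receptor for single-stranded RNA, at 92.1 ± 7.29. Tlr4 was at 53.8 ± 9.44, Tlr2 at 46.5 ± 6.54, Tlr3 at 35.7 ± 5.83, Tlr1 at 23.3 ± 4.44 and Tlr6 at 18.4 ± 3.73 CPM per kilobase. At the low end stood Tlr9 with 6.00 ± 1.299 CPM per kilobase and Tlr5 with 2.84 ± 1.27, while Tlr8 had no count in any of the 7 mice. Not every step of this order was larger than its spread. Tlr4 was above Tlr2 in only 4 of 7 mice, and the ranges of Tlr2 and Tlr3 and of Tlr1 and Tlr6 overlapped as well, whereas Tlr13, Tlr7 and Tlr4 were separate from each other by this length (by the longest transcript Tlr7 and Tlr4 were close, at 96.4 and 91.6 CPM per kilobase), and so were Tlr6, Tlr9 and Tlr5.

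The order differed at P9 and after LPS. In P9-CTR mice Tlr13 (63.2 ± 10.6 CPM per kilobase, n = 12), Tlr7 (54.6 ± 7.30) and Tlr2 (47.3 ± 9.60) led with overlapping ranges, and Tlr3 stood at 7.41 ± 1.35. After LPS in P200-CTR mice Tlr2 was first at 370.6 ± 124.2 CPM per kilobase (n = 7), above Tlr13 (191.8 ± 31.0) in 6 of 7 mice, with Tlr7 next at 156.4 ± 22.6. Tlr4 took place 7 there with 27.7 ± 6.45 CPM per kilobase. With the length of the longest transcript in place of all exons, Tlr4 moved to place 4 in P9-CTR and in P200-CTR-LPS, so its order with Tlr1 in P9-CTR, and with Tlr1, Tlr3 and Tlr6 in P200-CTR-LPS, is not settled by these data.

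**Figure D1:**
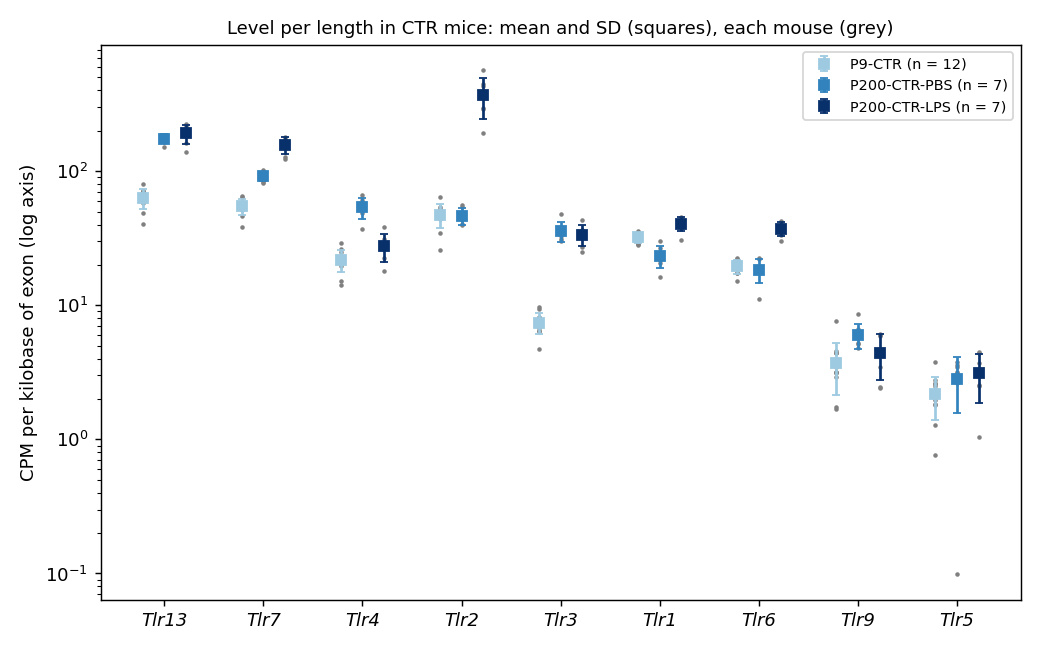
Level of 9 Toll-like receptor genes in CTR mice, in CPM per kilobase of exon on a log axis. Squares and bars are means and SD of P9-CTR (n = 12), P200-CTR-PBS (n = 7) and P200-CTR-LPS (n = 7) mice, grey points are mice; Tlr13 and Tlr7 lead in adults after PBS, Tlr2 leads after LPS, and the lowest point is a P200-CTR-PBS mouse with Tlr5 at 0.0984 CPM per kilobase. Tlr8 is not drawn.

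Counted over all members, the age comparison (P200 after PBS against P9) called 7 of 10 members in CTR mice, 5 higher and 2 lower in adults, and 6 of 10 in ELS mice, 5 higher and 1 lower. A gene was called when its adjusted p was below 0.05 in edgeR's quasi-likelihood test with Benjamini-Hochberg adjustment over the 16696 genes tested, and all p-values below come from this test unless another is named. Of all genes tested, 44.06% were called in CTR mice (17.44% higher, 26.62% lower) and 42.2% in ELS mice (17.15% higher, 25.05% lower). With the study's further demand of an absolute log2 fold change above 1, there were 4 members in each condition against 26.45% and 26.16% of all genes (in ELS mice Tlr4 at 1.02 and Tlr1 at -1.02 lie on the cut, and leaving out single mice takes them to 0.91 and -0.89), and 4 members without overlap between the ages in each condition against 17.09% and 11.63%. In CTR mice Tlr8 was among the members called lower and among those past a log2 fold change of 1. Its call there rests on 33 counts and was lost in 9 of 19 fits that left out 1 mouse. The median log2 fold change of the 9 members other than Tlr8 was 0.70 in CTR and 0.65 in ELS mice. Over all genes the median was -0.09 and -0.01. Adult but not P9 brains went through Percoll removal of myelin. Adult mice also had an injection 3 h before death, which P9 mice had not, and the ages came from separate cohorts. Age cannot be told apart from these differences.

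For LPS against PBS at P200, 5 of 10 members were called in CTR mice (4 higher, 1 lower) and 4 of 10 in ELS mice (3 higher, 1 lower). The background was 14.93% of all genes in CTR (8.733% higher, 6.199% lower) and 12.33% in ELS (7.397% higher, 4.935% lower), the latter from 2059 genes, and 3536 were called without the 3 libraries of few genes. Past an absolute log2 fold change of 1 there were 2 and 3 members, against 9.619% and 7.864% of all genes (Tlr6 in CTR mice, at 1.02, falls to 0.93 with a single mouse left out), and 4 and 2 members had no overlap between PBS and LPS mice, against 7.487% and 10.01% of all genes. The median log2 fold change of the 9 members was 0.14 in CTR and 0.18 in ELS mice, beside 0.00 and -0.04 for all genes. The age and the LPS comparisons share the P200 PBS mice, so their values for a gene are not independent of each other. In bulk samples such as these, fewer cells of a type and less RNA per cell cannot be told apart.

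**Figure D2:**
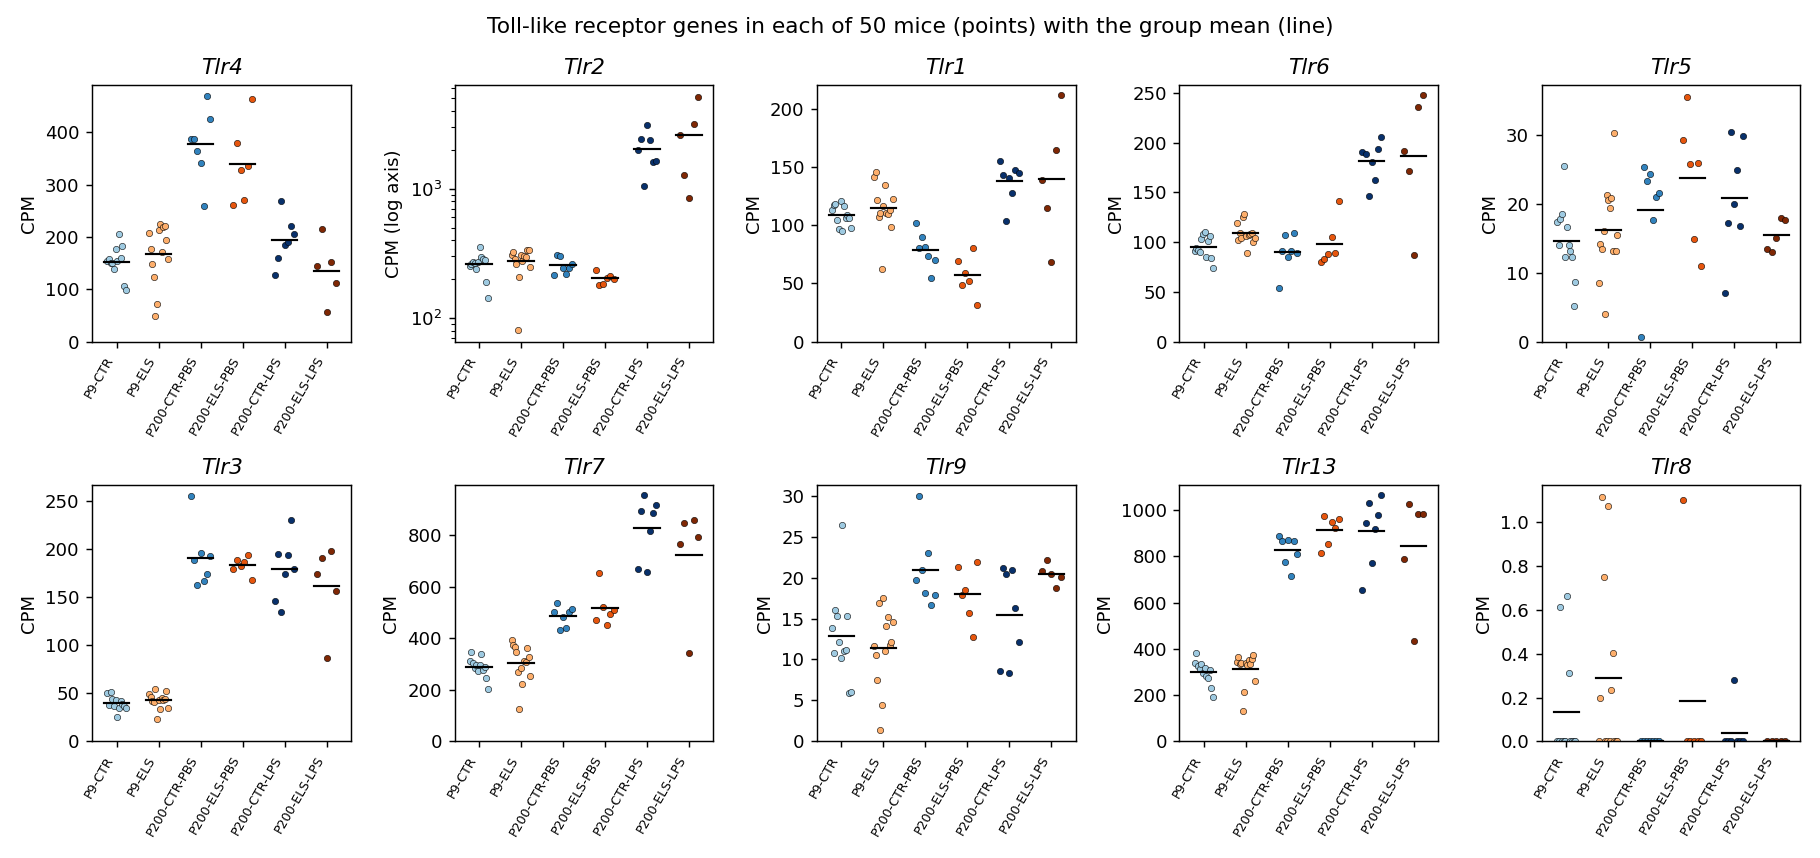
Level of each of the 10 Toll-like receptor genes in CPM (vertical axis; a log axis for Tlr2, linear from 0 for the others) in the 6 groups of mice. Points are mice and lines are group means; the P200 PBS points of Tlr3, Tlr4, Tlr7 and Tlr13 lie above all P9 points of the same condition, and all LPS points of Tlr2 lie above all PBS points.

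Tlr4 encodes the receptor for LPS, which acts together with the proteins of Ly96 and Cd14. The gene (ENSMUSG00000039005, chr4:66745783-66849936 of GRCm39, plus strand) was higher in adult than in P9 microglia and lower after LPS than after PBS. In P9-CTR mice its level ran from 98.5 to 205 CPM with a median of 155, and in P200-CTR-PBS mice from 260.0 to 469.7 CPM with a median of 387. In ELS mice it ran from 49.5 to 225 CPM at P9, with a median of 177, and from 261 to 464 CPM at P200 after PBS, with a median of 332. Every adult PBS mouse was therefore above every P9 mouse of its condition, with a log2 fold change of 1.301 ± 0.20 (SE) in CTR (adjusted p = 4.12e-07) and of 1.02 ± 0.20 in ELS mice (adjusted p = 5.67e-05). About 3.35% of the exon bases of Tlr4 overlap the antisense gene Gm69151, and the library kit does not mark strand, so reads from that stretch cannot be assigned to either gene.

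After LPS, Tlr4 ran from 127 to 269 CPM in P200-CTR mice, with a median of 190.1. The 5 P200-ELS-LPS mice, here and below in the order 2-2, 4-2, 11-2, 17-3 and 20-1, had 145, 214, 57.3, 152 and 111 CPM. In CTR mice 6 of 7 LPS values were below the lowest PBS value, and in ELS mice all 5 were. Tlr4 thus fell, with a log2 fold change of -0.96 ± 0.23 in CTR (adjusted p = 0.00198) and of -1.32 ± 0.27 in ELS mice (adjusted p = 2.60e-04). The lowest value, 57.3 CPM, belonged to mouse 11-2, and without it the log2 fold change in ELS mice was -1.13 (adjusted p = 0.00218). Whether LPS lowered Tlr4 differently in ELS and CTR mice was tested by the interaction, which had a log2 difference of -0.36 ± 0.35 and an adjusted p of 0.968, and of -0.17 without mouse 11-2.

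Among the receptors for bacterial lipoproteins, Tlr2 forms pairs with Tlr1 or Tlr6, and all 3 genes rose after LPS in both conditions. Sequence before their start sites is shown here because these members all rose after LPS. Windows of 250 bases before a RefSeq gene start were at hand for 8 of the 10 members, 10 windows in all; Tlr4 and Tlr7 have no entry. They were searched on both strands for the NF-kB consensus, for GAAANNGAA, the core of the interferon response element, and for GAGGAA, the core bound by PU.1. Of 32841 windows of the same length over all genes, 3.9% held the NF-kB consensus, 7.13% GAAANNGAA and 23.3% GAGGAA. The sequences are on GRCm38.p6, from the minus strand, at chr3:83841609-83841858 for Tlr2, chr5:64933559-64933808 for the window 1 of Tlr1 and chr5:64959167-64959416 for the window 1 of Tlr6, and each is written in the direction of its gene. Capitals mark 3 overlapping matches to the NF-kB consensus in Tlr2, 173 to 163 bases before the start; GAGGAA in Tlr1, 23 to 18 bases before the start; and in Tlr6 a pair of overlapping matches to GAAANNGAA on the opposite strand, 115 to 101 bases before the start.
Tlr2: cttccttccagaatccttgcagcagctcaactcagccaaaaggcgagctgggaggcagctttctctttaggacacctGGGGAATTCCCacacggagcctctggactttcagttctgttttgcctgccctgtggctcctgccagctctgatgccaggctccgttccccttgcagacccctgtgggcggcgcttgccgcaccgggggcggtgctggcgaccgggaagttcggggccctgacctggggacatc
Tlr1: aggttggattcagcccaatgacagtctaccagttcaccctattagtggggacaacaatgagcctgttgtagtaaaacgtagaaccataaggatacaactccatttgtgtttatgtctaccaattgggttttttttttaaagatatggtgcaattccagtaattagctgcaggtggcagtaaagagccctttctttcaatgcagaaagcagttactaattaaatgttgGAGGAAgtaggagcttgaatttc
Tlr6: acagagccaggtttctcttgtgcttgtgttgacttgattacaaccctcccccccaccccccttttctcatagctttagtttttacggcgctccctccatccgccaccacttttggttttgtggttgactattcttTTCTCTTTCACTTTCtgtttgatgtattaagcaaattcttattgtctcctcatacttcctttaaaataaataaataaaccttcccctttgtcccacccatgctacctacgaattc
Each of these 3 windows held only the motif marked, and the GC content was 62.8% for Tlr2, 39.2% for Tlr1 and 42% for Tlr6. The NF-kB consensus also matched the window of Tlr3, a gene that did not pass the test after LPS, 211 to 202 bases before its start, GAGGAA the windows of Tlr8, Tlr9 and Tlr13, and GAAANNGAA that of Tlr8, none of them called after LPS. The second windows of Tlr1 and Tlr6 held no match. A match is a description, not a site or a cause.

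Tlr2 (ENSMUSG00000027995, chr3:83743576-83749074 of GRCm39, minus strand) had the largest rise of the members after LPS. In P200-CTR mice it ran from 217 to 308 CPM after PBS, with a median of 244, and from 1054 to 3134 CPM after LPS, with a median of 1988. In P200-ELS mice it ran from 181 to 237 CPM after PBS, with a median of 202, and the 5 LPS mice had 2616, 1273, 851, 3184 and 5155 CPM. No LPS mouse overlapped the PBS mice of its condition, although the LPS values themselves spread over several fold. Tlr2 rose by 2.99 ± 0.26 on the log2 scale in CTR mice (adjusted p = 2.17e-13) and by 3.69 ± 0.29 in ELS mice (adjusted p = 1.85e-14). The interaction had a log2 difference of 0.69 ± 0.36, with a 95% interval from -0.03 to 1.42, p = 0.0605 before and 0.872 after adjustment, and leaving out single mice moved it between 0.29 and 0.92. Tlr2 spread more after LPS than after PBS, while the fit shares its estimate of spread over all groups, so this interval may be too narrow.

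With age Tlr2 was not called. P9-CTR mice ran from 143 to 355 CPM (median 269) and P9-ELS mice from 80.9 to 339 CPM (median 299), ranges that hold all adult PBS values. The log2 fold change with age was -0.02 ± 0.21 for CTR (adjusted p = 0.946) and -0.44 ± 0.23 for ELS mice (adjusted p = 0.117). The lowest P9-ELS value was that of mouse 19-2, and without that mouse the log2 fold change in ELS mice was -0.52 (adjusted p = 0.0323); without the 3 libraries of few genes it was -0.56 (adjusted p = 0.0217).

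Tlr1 (ENSMUSG00000044827, chr5:65082022-65090941 of GRCm39, minus strand), the partner of Tlr2 for triacylated lipoproteins, was lower in adults than at P9 and higher after LPS. It ran from 94.8 to 121 CPM in P9-CTR (median 108) and from 54.5 to 102 CPM in P200-CTR-PBS mice (median 80.6). The corresponding ranges were 62.2 to 145 CPM (median 113) in P9-ELS and 31.4 to 80.1 CPM (median 55.6) in P200-ELS-PBS mice. All but 1 of the 7 adult CTR mice, and 4 of the 6 adult ELS mice, lay below every P9 mouse of their condition. The log2 fold change with age was -0.46 ± 0.15 for CTR (adjusted p = 0.0107) and -1.02 ± 0.16 for ELS mice (adjusted p = 1.11e-06), and the difference between these changes had a p of 0.0129, or 0.359 when adjusted.

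After LPS, Tlr1 ran from 104 to 155 CPM in CTR mice (median 143), above all 7 PBS mice. The 5 P200-ELS-LPS mice had 138, 115, 68.0, 165 and 211 CPM, and only the 68.0 CPM of mouse 11-2 fell within the range of the PBS mice. The rise came to 0.81 ± 0.17 on the log2 scale in CTR (adjusted p = 3.30e-04) and 1.296 ± 0.19 in ELS mice (adjusted p = 7.27e-07), with an interaction of 0.49 ± 0.25 (adjusted p = 0.861).

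Tlr6 (ENSMUSG00000051498, chr5:65108704-65203497 of GRCm39, minus strand), the partner of Tlr2 for diacylated lipoproteins, lies 17762 bases from Tlr1. It was not called with age, with a log2 fold change of -0.08 ± 0.13 in CTR and -0.15 ± 0.13 in ELS mice, and ran from 73.7 to 109.8 CPM in P9-CTR (median 93.0) and from 89.2 to 128 CPM in P9-ELS mice (median 107). After PBS it ran from 54.4 to 109 CPM in P200-CTR mice (median 90.6) and from 79.9 to 141 CPM in P200-ELS mice (median 88.9). After LPS it ran from 146 to 206 CPM in CTR mice (median 189), and the 5 ELS mice had 191, 172, 87.2, 236 and 248 CPM. In CTR mice the groups did not overlap, and in ELS mice 4 of 5 LPS values were above every PBS value, mouse 11-2 being the exception. Tlr6 rose by a log2 fold change of 1.02 ± 0.15 in CTR (adjusted p = 4.00e-07) and of 0.93 ± 0.16 in ELS mice (adjusted p = 2.76e-05). Tlr1 and Tlr6 are near copies over part of their length: 454 stretches of 50 bases are identical between their transcripts, out of 2997 in Tlr1 and 4298 in Tlr6, and a read that lies wholly in such a stretch is not unique to either gene. The read length is not stated, so how many reads this removed from the counts is not known.

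**Figure D3:**
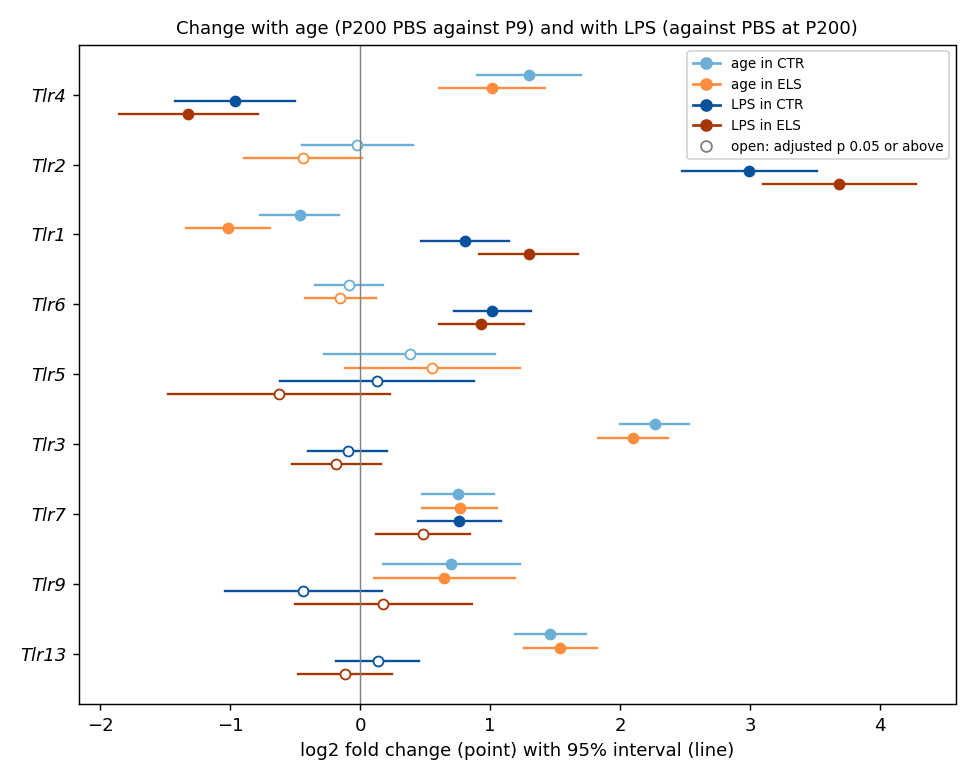
Log2 fold change of 9 Toll-like receptor genes with age (P200 after PBS against P9, pale) and with LPS (against PBS at P200, dark) in CTR (blue) and ELS (orange and brown) mice. Points are estimates, lines 95% intervals, and open points have an adjusted p of 0.05 or above; Tlr2, Tlr1 and Tlr6 lie to the right of 0 after LPS and Tlr4 to the left, while Tlr3, Tlr4, Tlr7, Tlr9 and Tlr13 lie to the right with age. Tlr8 is not drawn.

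Tlr5 (ENSMUSG00000079164), the receptor for flagellin, was a gene of low level that passed in no comparison. At P9 it ran from 5.12 to 25.4 CPM in CTR (median 14.1) and from 3.95 to 30.2 CPM in ELS mice (median 15.5), and in adults after PBS from 0.661 to 25.4 CPM in CTR (median 21.5) and from 11.0 to 35.5 CPM in ELS mice (median 25.8). After LPS the CTR mice ran from 6.99 to 30.3 CPM (median 19.9), and the 5 ELS mice had 13.4, 12.9, 15.0, 17.9 and 17.7 CPM. All groups overlapped. The lowest value, 0.661 CPM from 13 counts, was that of the P200-CTR-PBS mouse 1-1, where the other 6 mice of the group had at least 17.6 CPM. The log2 fold change with age was 0.38 ± 0.33 in CTR mice (adjusted p = 0.36), and 0.60 (adjusted p = 0.034) without the 3 libraries of few genes, which include mouse 1-1. The change with LPS was 0.13 ± 0.37 in CTR and -0.62 ± 0.43 in ELS mice (adjusted p = 0.886 and 0.393).

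Tlr3 (ENSMUSG00000031639, chr8:45848702-45864117 of GRCm39, minus strand), the endosomal receptor for double-stranded RNA, had the largest rise with age among the members. It ran from 25.4 to 51.8 CPM in P9-CTR (median 38.3) and from 162 to 255 CPM in P200-CTR-PBS mice (median 189). In ELS mice it ran from 23.7 to 54.9 CPM at P9 (median 43.3) and from 167 to 194 CPM at P200 after PBS (median 184). The ages were thus far apart in both conditions, with a log2 fold change of 2.27 ± 0.13 in CTR (adjusted p = 7.51e-20) and of 2.1002 ± 0.13 in ELS mice (adjusted p = 1.85e-18). The highest adult value, 255 CPM, came from mouse 1-1. After LPS it ran from 135 to 230.4 CPM in CTR mice (median 179), and the 5 ELS mice had 174, 191, 87.0, 198 and 157 CPM, so that both groups overlapped the PBS mice. The gene was not called, with a log2 fold change of -0.09 ± 0.15 in CTR and of -0.18 ± 0.17 in ELS mice (95% intervals -0.40 to 0.21 and -0.53 to 0.16). The antisense gene Gm45542 overlaps 8.19% of the exon bases of Tlr3, and its reads cannot be told apart from those of Tlr3.

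Tlr13 (ENSMUSG00000033777, chrX:105186810-105204533 of GRCm39, plus strand) followed the same course with age. It ran from 190.8 to 380.5 CPM in P9-CTR (median 312) and from 713 to 888 CPM in P200-CTR-PBS mice (median 866). In ELS mice the range was 132 to 374 CPM at P9 (median 339.8) and 813 to 973 CPM at P200 after PBS (median 937). Here too no adult PBS mouse overlapped the P9 mice, and Tlr13 rose on the log2 scale by 1.46 ± 0.14 in CTR (adjusted p = 1.19e-12) and by 1.54 ± 0.14 in ELS mice (adjusted p = 4.33e-13). After LPS the CTR mice ran from 653 to 1063 CPM (median 945) and the 5 ELS mice had 789, 1024, 433, 982 and 984 CPM, overlapping the PBS mice. LPS left Tlr13 without a call: its change came to 0.14 ± 0.16 in CTR and -0.12 ± 0.18 in ELS mice, with 95% intervals from -0.18 to 0.45 and from -0.48 to 0.25.

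Tlr7 (ENSMUSG00000044583, chrX:166086758-166113605 of GRCm39, minus strand) rose with age in both conditions and with LPS in CTR mice. Its range was 203 to 346 CPM in P9-CTR (median 292), 431 to 537 CPM in P200-CTR-PBS (median 502) and 658 to 956 CPM in P200-CTR-LPS mice (median 887). In these CTR groups no value of a later step overlapped the step before. In ELS mice it ran from 127 to 395 CPM at P9 (median 314) and from 450.4 to 656 CPM at P200 after PBS (median 504), and the 5 LPS mice had 767, 847, 342, 862 and 795 CPM. All ELS mice but 11-2, the mouse at 342 CPM, had more Tlr7 after LPS than any ELS mouse after PBS.

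The log2 fold change of Tlr7 with age was 0.75 ± 0.14 for CTR (adjusted p = 1.57e-05) and 0.77 ± 0.14 for ELS mice (adjusted p = 2.00e-05). LPS moved it by 0.76 ± 0.16 in CTR (adjusted p = 3.58e-04) and by 0.48 ± 0.18 in ELS mice (adjusted p = 0.0708). The difference between the LPS responses was -0.28 ± 0.24 with an adjusted p of 0.964 (-0.10 without mouse 11-2), so a difference between the conditions was not shown. Without mouse 11-2 the log2 fold change in ELS mice was 0.66 (adjusted p = 0.0045), and without the P200-ELS-PBS mouse 4-1 it was 0.56 (adjusted p = 0.0435); with all mice DESeq2 called it (0.51, adjusted p = 0.0312). A repeat makes 7.68% of the 50-base stretches of Tlr7 occur in other genes as well.

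Tlr9 (ENSMUSG00000045322, chr9:106099797-106104082 of GRCm39, plus strand), the endosomal receptor for unmethylated CpG DNA, was low throughout. It ran from 5.85 to 26.5 CPM in P9-CTR (median 11.6) and from 16.6 to 29.9 CPM in P200-CTR-PBS mice (median 19.7), and the corresponding ranges in ELS mice were 1.42 to 17.4 CPM (median 11.7) and 12.8 to 21.9 CPM (median 18.14). The ages overlapped in both conditions, although every adult PBS mouse was above the P9 median. Tlr9 passed narrowly with age, at a log2 fold change of 0.70 ± 0.26 in CTR (adjusted p = 0.0262) and of 0.65 ± 0.27 in ELS mice (adjusted p = 0.0486). The call in CTR mice was lost without the P200-CTR-PBS mouse 5-1 (0.59, adjusted p = 0.0783), and that in ELS mice in 12 of 19 fits that left out 1 mouse. Without the low-count filter the call in ELS mice was also lost, at 0.65 (adjusted p = 0.0768). With only the groups compared it was lost at 0.63 (adjusted p = 0.126). Without the libraries of few genes the log2 fold change itself was lower, at 0.47 (adjusted p = 0.0661). After LPS the CTR mice ran from 8.38 to 21.2 CPM (median 16.3), and the 5 ELS mice had 20.8, 22.1, 20.4, 18.7 and 20.0 CPM. In CTR mice 4 of 7 LPS values were below the lowest PBS value, and in ELS mice 1 of 5 was above the highest. LPS gave a log2 fold change of -0.44 ± 0.30 in CTR and of 0.18 ± 0.34 in ELS mice, neither of which was called (adjusted p = 0.386 and 0.803).

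Tlr8 (ENSMUSG00000040522), the X-linked neighbour of Tlr7 at a distance of 39432 bases, was close to absent. It had 33 counts over 3 of 12 P9-CTR mice, 74 counts over 6 of 13 P9-ELS mice, 39 counts in 1 of 6 P200-ELS-PBS mice, 5 counts in 1 of 7 P200-CTR-LPS mice and none in P200-CTR-PBS or in P200-ELS-LPS mice. The highest level in any mouse was 1.12 CPM. The call with age in CTR mice (adjusted p = 0.0382) thus rests on 33 counts, 18 of them in 1 mouse, and was lost in 9 of 19 fits that left out 1 mouse; DESeq2 gave an adjusted p of 0.233, the edgeR likelihood-ratio test 0.0521 and limma 0.468, and the age by ELS interaction had an adjusted p of 0.493. Of the other mouse family genes, which are not members, Tlr11 had a count in 12 of 50 mice, at most 1.70 CPM, and Tlr12 rose with age by a log2 fold change of 1.83 ± 0.30 in CTR (adjusted p = 1.44e-06) and of 1.95 ± 0.30 in ELS mice (adjusted p = 5.50e-07).

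Markers of other cells moved with age as well. In CTR mice, 6 of 6 border-associated macrophage markers, 5 of 5 neuronal markers and 5 of 5 astrocyte markers were lower in adults, and their sums went from 727.5 to 6.17, from 107.5 to 6.59 and from 129.5 to 4.66 CPM. The only B cell marker tested, Cd79b, fell from 149.8 to 45.8 CPM, and the neutrophil list, whose most abundant gene at P9 was Cxcr2 with 14.2 CPM, summed to 14.5 and 0.0968 CPM. Monocyte markers summed to 12.0 CPM at P9 and 7.58 CPM in adults, with 3 of the 4 tested lower and 1 higher. Endothelial markers summed to 37.1 and 53.5 CPM, most of it Pecam1 (28.1 and 47.7 CPM), which was higher in adults while 2 of the 5 were lower. Oligodendrocyte markers summed to 21.2 and 22.8 CPM, with 1 of the 4 tested higher and 1 lower. Of the 9 microglia markers 7 were higher in adult CTR mice and 5 in adult ELS mice (medians of 0.47 and 0.46 on the log2 scale). The part of these shifts in the age results of the Toll-like receptor genes was not tested.

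After LPS fewer markers moved, and those named here were chosen after their values were seen. The microglia markers P2ry12 and Sall1 fell in both conditions, with log2 fold changes of -0.62 ± 0.16 and -1.73 ± 0.16 in CTR mice (adjusted p = 0.00443 and 1.17e-12) and of -0.58 ± 0.18 and -2.01 ± 0.18 in ELS mice (adjusted p = 0.0271 and 1.80e-12). C1qa rose in ELS mice (0.67 ± 0.21, adjusted p = 0.0246). Some low-level markers of other cells also rose. In CTR mice these were Cbr2, 1 of 6 border-associated macrophage markers, and Kdr and Cdh5, 2 of 5 endothelial markers. In ELS mice they were Vcan, 1 of 4 monocyte markers tested, and Gfap and Gja1, 2 of 5 astrocyte markers. The other markers of these lists were not called in that condition. In CTR mice the border-associated macrophage sum went from 6.17 to 5.135 CPM and the endothelial sum from 53.5 to 74.8 CPM. The monocyte sum in ELS mice went from 8.91 to 6.68 CPM. The astrocyte list summed to 4.58 CPM in P200-CTR-LPS and 4.61 CPM in P200-ELS-LPS mice, but to 4.66 CPM in P200-CTR-PBS and 1.70 CPM in P200-ELS-PBS mice, and Gfap was lower in ELS than in CTR mice after PBS (adjusted p = 0.0466), so the rise in ELS mice starts from a lower PBS level. No marker list had a call in the interaction of LPS with ELS. The neutrophil list reached at most 9.17 CPM, in the P200-ELS-LPS mouse 17-3, with Ly6g at 0. The mouse 11-2, in which 7 members were lowest, had the highest microglia marker sum of its group, 79470 CPM against 68630 to 75600 CPM in the other 4, and a B cell list sum of 116 CPM, nearly all of it Cd79b, against 25.8 to 38.3 CPM. The P9-ELS mouse 19-2 likewise had the highest microglia marker sum of its group (61610 CPM) and a B cell list sum of 428.5 CPM, against at most 200.9 CPM in the others, with the lowest endothelial sum (1.77 CPM), whereas the P9-CTR mouse 58-2 had the lowest microglia sum of its group (33100 CPM). The part of these values in the low Toll-like receptor levels of these mice was not tested.

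ELS and CTR microglia were compared at P9, at P200 after PBS and at P200 after LPS, to ask whether stress in early life changed these genes. The quasi-likelihood test called 0 of 10 members in each, as did DESeq2 and the edgeR likelihood-ratio test. The background was 0%, 0.1677% and 0% of all genes tested, so few genes of any kind were called. At an unadjusted p under 0.05 there were 0 members at P9, 2 after PBS and 1 after LPS, beside 914, 1622 and 798 of the 16696 genes. Over all genes DESeq2 called 0, 178 and 2 genes and the likelihood-ratio test 1, 215 and 10.

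The intervals give the size of difference these comparisons leave possible under a fit with 1 estimate of spread per gene for all 6 groups. The spreads themselves were unequal. For Tlr2 the SD of log2 CPM was 0.20 (CTR) and 0.14 (ELS) after PBS, and 0.51 and 1.04 after LPS. For Tlr4 it was 0.34 and 0.71 after LPS. The intervals of Tlr2 and Tlr4 after LPS may therefore be too narrow, and that of Tlr2 after PBS too wide. At P9 the 95% intervals of the log2 difference between ELS and CTR mice lay between -0.61 and 0.70 for the 9 members other than Tlr8, and the estimates between -0.16 (Tlr9) and 0.20 (Tlr6). For Tlr4 the interval was -0.21 to 0.48 around an estimate of 0.13 (0.29 without the libraries of few genes), for Tlr2 -0.28 to 0.44 and for Tlr3 -0.12 to 0.33. After PBS the estimates ran from -0.47 (Tlr1) to 0.31 (Tlr5), and the intervals from -0.84 to 1.09. After LPS the estimates ran from -0.51 (Tlr4) to 0.40 (Tlr9), and the intervals, the widest of the 3 comparisons, from -1.26 to 1.06. Litters, not single mice, were assigned to ELS or CTR. The P9 mice carry 5 (CTR) and 4 (ELS) label numbers, taken here as nests, and each adult group carries 5. The fit behind these intervals treats mice of a nest as independent. With nest as a random effect, limma voom called 0 genes for ELS at P9. A p that misses the threshold does not show that the groups were alike.

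The members with an unadjusted p under 0.05 were these. After PBS, Tlr1 was at a median of 55.6 CPM in ELS against 80.6 CPM in CTR mice, every ELS mouse was below the CTR median, and the log2 difference was -0.47 ± 0.18 (p = 0.0098, adjusted p = 0.273). Tlr8 was the other after PBS, on the 39 counts of a single ELS mouse (adjusted p = 0.286). After LPS, Tlr4 was at 194 ± 45.2 CPM (SD, n = 7) in CTR and at 136 ± 57.6 CPM (n = 5) in ELS mice, with 4 of 5 ELS mice below the CTR median; the log2 difference was -0.51 ± 0.25, its 95% interval ran from -1.02 to -0.0025, and p was 0.0489 before and 1 after adjustment. Leaving out single mice moved that difference between -0.74 and -0.32. The 95% interval of Tlr4 may be too narrow, because the fit shares its estimate of spread over all groups.

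**Figure D4:**
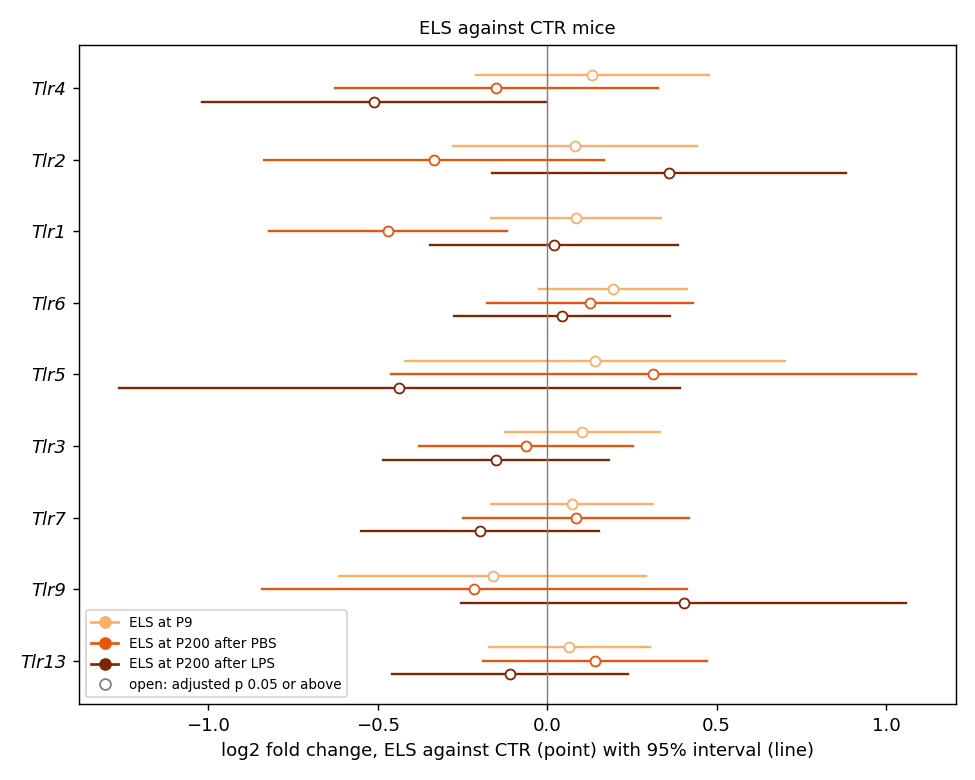
Log2 fold change of 9 Toll-like receptor genes in ELS against CTR mice at P9, at P200 after PBS and at P200 after LPS. Points are estimates and lines 95% intervals; all points are open because no adjusted p was below 0.05, and the lines of Tlr1 after PBS and Tlr4 after LPS end short of 0. Tlr8 is not drawn.

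The interactions of ELS with LPS and with age asked whether stress changed the response or the course with age. None of the 10 members was called in either by the quasi-likelihood test, by DESeq2 or by the likelihood-ratio test, and the background was 0% and 0.02995% of all genes. At an unadjusted p under 0.05 there was 1 member in each, Tlr8 for LPS (adjusted p = 0.61) and Tlr1 for age (adjusted p = 0.359), beside 980 and 1712 of all genes. Over all genes, the interaction with LPS had 15 calls by DESeq2 and 66 by the likelihood-ratio test, and that with age had 20 and 29. For the 9 members other than Tlr8 the log2 difference of the LPS responses ran from -0.75 (Tlr5) to 0.69 (Tlr2).

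Genes that act with these receptors were taken from lists, and their counts after LPS stand beside 8.733% of all genes higher and 6.199% lower in CTR mice, and 7.397% and 4.935% in ELS mice; in lists this short a single call carries little weight. Of 6 co-receptors and accessory proteins, 1 rose and 2 fell after LPS in CTR mice, and 1 rose and 1 fell in ELS mice. Ly96, the partner of Tlr4, was among those that fell in CTR mice (-0.64 ± 0.17, adjusted p = 0.0053); in ELS mice it was not called (-0.25 ± 0.19, adjusted p = 0.459), with an interaction at adjusted p = 0.913, and it was named after its values were seen. Cd14, which hands LPS to the receptor and is the most abundant of them, went from 964 ± 66.5 CPM (SD, n = 7) after PBS to 3976 ± 1208 CPM (n = 7) after LPS in CTR mice, and from 1018 ± 79.2 (n = 6) to 5081 ± 2451 CPM (n = 5) in ELS mice. It rose on the log2 scale by 2.04 ± 0.18 and 2.32 ± 0.21 (adjusted p = 8.22e-13 and 6.93e-13), while Tlr4 fell. Cd14 also rose with age, by a log2 fold change of 1.48 ± 0.15 in CTR and of 1.48 ± 0.16 in ELS mice (adjusted p = 2.21e-11 and 3.82e-11).

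Among 6 adaptors, 3 rose after LPS in CTR mice and 2 in ELS mice, and none fell. Myd88, the adaptor of most members, rose by a log2 fold change of 1.78 ± 0.23 in CTR and of 2.07 ± 0.26 in ELS mice (adjusted p = 3.97e-08 and 1.98e-08). Tirap, which links Myd88 to Tlr2 and Tlr4, rose by 1.86 ± 0.35 and 1.39 ± 0.39 on the log2 scale (adjusted p = 7.68e-05 and 0.0109), but with the replicate number as a block the value in ELS mice, 1.45, was not called (adjusted p = 0.0827). Ticam1, which encodes TRIF, was called in CTR mice (2.13 ± 0.49, adjusted p = 0.00122) and missed the threshold in ELS mice (1.53 ± 0.54, adjusted p = 0.0503). Its value in ELS mice was called, at a similar size, by DESeq2 (1.56, adjusted p = 0.028), the likelihood-ratio test (1.53, 0.0323) and 6 other alternatives, and its interaction had an adjusted p of 0.975. Pik3ap1, the most abundant of the adaptors, had log2 fold changes of 0.47 ± 0.25 and 0.39 ± 0.28 (adjusted p = 0.226 and 0.419).

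Of 14 kinases and ubiquitin ligases, 2 rose after LPS in CTR mice and 1 in ELS mice, and none fell. Traf6 rose by a log2 fold change of 1.14 ± 0.18 in CTR and 1.12 ± 0.20 in ELS mice (adjusted p = 3.33e-06 and 5.24e-05), and Traf3 by 2.02 ± 0.55 in CTR mice (adjusted p = 0.0069), with 0.87 ± 0.60 in ELS mice (adjusted p = 0.393) and an interaction at adjusted p = 0.939. Irak2, the most abundant of this list, was not called after LPS (-0.27 ± 0.24 and -0.11 ± 0.27, adjusted p = 0.528 and 0.851). Of 8 inhibitors of the pathway, 3 rose in both conditions, and 1 fell in CTR mice (Cd300a, named after its values were seen, -0.36 ± 0.10, adjusted p = 0.0124; interaction at adjusted p = 0.913). Nfkbia, which encodes the inhibitor of NF-kB, rose by 3.56 ± 0.19 in CTR and 4.07 ± 0.21 in ELS mice on the log2 scale (adjusted p = 6.65e-21 and 3.83e-21), Tnfaip3 by 3.57 ± 0.47 and 3.60 ± 0.51 (adjusted p = 4.12e-08 and 4.08e-07; 2.93 to 3.87 in ELS mice with single mice left out), and Tnip1 by 1.32 ± 0.29 and 1.35 ± 0.32 (adjusted p = 7.01e-04 and 0.00245).

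Chaperones, transport proteins and proteases linked to the endosomal receptors were a list of 9. After LPS 1 rose in CTR and 3 in ELS mice, none past a log2 fold change of 1, and Lgmn, the most abundant, had 0.01 ± 0.08 and 0.14 ± 0.10 (adjusted p = 0.989 and 0.386). With age 1 rose and 4 fell in CTR mice, and 1 rose and 5 fell in ELS mice, where 26.62% and 25.05% of all genes were lower and 17.44% and 17.15% higher, so calls in either direction are common among genes of any kind. With age there were also 2 higher and 2 lower of the co-receptors in CTR mice (2 and 4 in ELS mice), 1 and 0 of the adaptors in both, 2 and 2 of the kinases and ligases in CTR mice (4 and 1 in ELS mice), and 4 and 1 of the inhibitors in CTR mice (5 and 1 in ELS mice). ELS against CTR gave 0 calls in these 5 lists at P9, after PBS and after LPS.

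Cytokine and chemokine genes served as a check of the LPS label. Of 7 tested of 8 listed (Ifnb1 was too low), 6 rose after LPS in each condition, and Il6 was not called in either. Tnf went from 2.84 ± 1.62 CPM (SD, n = 7) after PBS to 259 ± 119.6 CPM (n = 7) after LPS in CTR mice, and from 3.15 ± 1.44 (n = 6) to 302 ± 234 CPM (n = 5) in ELS mice. The other 5 were Il1b, Il12b, Cxcl10, Ccl2 and Ccl5, with log2 fold changes of at least 4.39 (Ccl2) in CTR mice and 5.201 (Ccl5) in ELS mice. The size for Il12b is not settled, because its PBS level rests on 12 counts in CTR and 68 counts in ELS mice, and leaving out single mice moved it between 7.05 and 13.32 in ELS mice.

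How far members varied together from mouse to mouse was described by Pearson's r of the log2 CPM about the group means, over 50 mice and the 9 members other than Tlr8. Of 36 pairs, 32 had an r above 0, with a median of 0.32, and 16 had an adjusted permutation p below 0.05, whereas with Spearman's rho 4 did (100000 permutations within groups, adjusted over the 36 pairs). Over all 34217128 pairs of the 8273 genes at this level the median r was 0.01 and 51.52% of pairs were above 0, yet 43.28% had an absolute r of at least 0.28, the lowest among the 16, as did 21 of the 36 member pairs, so values of that size are common between any genes. Tlr4 and Tlr13 had the highest r, 0.82 (adjusted p = 3.60e-04), with a rho of 0.55 (adjusted p = 0.00576) and an r of 0.71 and 0.68 without the 2 mice farthest in Tlr4 or in Tlr13. For Tlr7 and Tlr13 r was 0.71 (adjusted p = 0.00486), rho 0.77 (adjusted p = 3.60e-04), and r without 2 mice 0.63 and 0.77. Other pairs lost more: Tlr1 and Tlr7 went from an r of 0.47 to 0.05 without the 2 farthest mice, so that value rests on those samples. Over all pairs the median without 2 mice was 0.16. Tlr1 and Tlr6, neighbours that share sequence, had an r of 0.11 (adjusted p = 0.669) and a rho of -0.01 (adjusted p = 0.955).

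**Figure D5:**
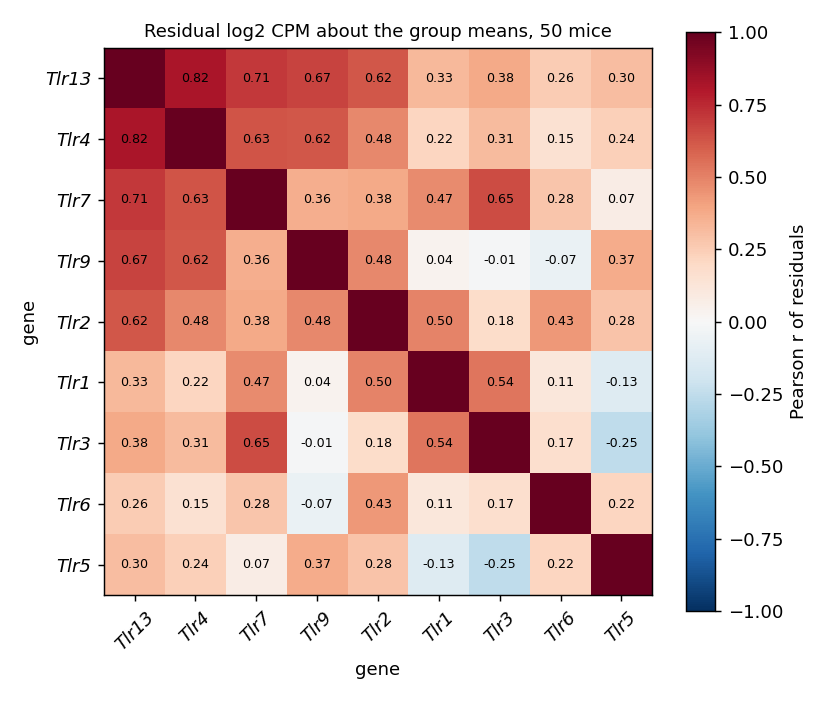
Pearson's r between members, computed on log2 CPM about the group means over 50 mice; colour gives r from -1 (blue) to 1 (red), and each cell prints its value. The order of the genes was chosen by hand. Tlr13, Tlr4, Tlr7 and Tlr9, placed at the upper left, have r from 0.36 to 0.82, and values outside that block reach 0.65 (Tlr3 and Tlr7).

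The genes most like a member were sought by the same r among 8264 genes, as a description chosen from many, and are given for 8 members. For Tlr2 these were Gm47079 (0.90, and 0.86 without the 2 farthest mice) and C5ar1, the receptor for complement C5a (0.90 and 0.82). Tlr13 was most like Gpr155 (0.86 and 0.73) and Tlr4 most like Slc40a1, the iron exporter (0.82 and 0.69). For Tlr7 it was Manea (0.85 and 0.64), for Tlr9 Daglb (0.80 and 0.66), for Tlr5 Adck2 (0.88 and 0.65), for Tlr1 Abce1 (0.74 and 0.56) and for Tlr6 Gm47123 (0.70 and 0.57).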

How the data were processed

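Per the labels, the authors demultiplexed reads with bcl2fastq 2.20, trimmed them with cutadapt 2.10, aligned them to GRCm39 with STAR and counted unique exonic reads per gene with HTSeq 0.11.0; the deposited values are raw counts, and the annotation release and strand setting are not stated. From these counts, CPM with TMM factors were computed here, and a gene was kept if more than 2 of the 50 mice reached 1 CPM (16696 of 53700). A model of 6 group means over all 50 mice was tested with edgeR 4.0.16 (quasi-likelihood) in R 4.3.3, with Benjamini-Hochberg adjustment. Alternatives were the edgeR likelihood-ratio test, DESeq2 1.42.0, RLE factors, no filter and a stricter filter, only the groups compared, limma 3.58.1 voom with nest as random effect, a replicate block, leaving out libraries under 16000 genes or each mouse, and a further threshold on the log2 fold change. Tables and figures used Python 3.11.15 with numpy 2.4.6, pandas 2.3.3, scipy 1.17.1 and matplotlib 3.10.9. The script was tested on simulated data. All 10 members are described; pathway genes are named when past both thresholds after LPS or most abundant in their list. The members and lists were chosen with earlier results of these data known. The leading number of each title was taken as the nest, which the labels do not define; all 13 deposited P9-ELS libraries were used.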

Additional observations from a re-analysis of the deposited data

Results flagged for a closer look

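A sample far from the others of its group was flagged by Dixon's test in 6 of 36 groups of values (9 members in the 4 adult groups); chance flags about 1 in 20 groups. In the P200-CTR-PBS mouse 1-1, a library with 12854 genes with a count, Tlr3 was high at 255.2 CPM, and Tlr5 (0.6615 CPM) and Tlr6 (54.35 CPM) were low. In the P200-ELS-LPS mouse 11-2, Tlr3 (86.98 CPM) and Tlr7 (342.1 CPM) were low. In the P200-CTR-LPS mouse 1-2, Tlr5 was low at 6.995 CPM. The cause was not tested for any of them.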

How the results depend on the processing

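Of the values of single members under alternatives other than leaving out single mice, 177 of those called in the main fit stayed called and 6 were no longer called; none of the called values reversed. Of those not called, 525 kept direction and side, 5 became called and 19 reversed. With the threshold that adds an absolute log2 fold change above 1, the count of members with age in CTR mice was 4 and with LPS in CTR mice 2.

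All reversed values were uncalled, and the cause was not tested. Without the libraries under 16000 genes the log2 fold changes were 0.01643 (Tlr9, ELS at P9), 0.02123 (Tlr3, ELS after PBS), 0.01439 (Tlr2, age in CTR), 0.00903 (Tlr6, age in CTR), -0.08867 (Tlr5, LPS in CTR), 0.008948 (Tlr6, LPS by ELS), and, for age by ELS, -0.1003 (Tlr5), -0.06779 (Tlr7) and -0.01803 (Tlr13). With limma voom they were -0.07088 (Tlr1) and -0.05047 (Tlr6) for ELS after LPS, 0.02371 (Tlr2) and -0.07818 (Tlr5) for age in CTR, and -0.2096 (Tlr8) and 0.02248 (Tlr9) for age by ELS. Tlr2 with age in CTR was 0.006687 under the stricter filter. Tlr7, age by ELS, was -0.001036 with DESeq2, -0.0008342 with RLE factors and -0.01799 with only the groups compared.

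Leaving out each mouse in turn gave ranges that cross 0 for uncalled values. For ELS after LPS they were -0.1784 to 0.1943 (Tlr1), -0.04082 to 0.5849 (Tlr2), -0.2339 to 0.007353 (Tlr3), -0.07997 to 0.2239 (Tlr6) and -0.1891 to 0.05624 (Tlr13); for ELS after PBS -0.09749 to 0.02133 (Tlr3) and -0.006678 to 0.1804 (Tlr6). For age in CTR they were -0.07211 to 0.02646 (Tlr2) and -0.1362 to 0.009253 (Tlr6), for LPS in CTR -0.08817 to 0.2788 (Tlr5) and -0.05328 to 0.04173 (Lgmn), and for LPS in ELS -0.1945 to 0.05053 (Tlr13). For LPS by ELS they were -0.1718 to 0.06953 (Tlr3) and -0.2065 to 0.09754 (Tlr6), and for age by ELS -0.04308 to 0.318 (Tlr5), -0.06719 to 0.05341 (Tlr7) and -0.1981 to 0.0552 (Tlr9).

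Mice of the P200 groups share a number before the point, used as a replicate block. Over 10 pairs that share it, correlations ran from -0.041 to 0.084 and none was over 0.1. The replicate block gave 2161 genes for LPS in CTR (2493 without it) and 2123 in ELS (2059 without it), changed no call of a member, left Tirap in ELS mice uncalled (1.449, adjusted p = 0.0827, against 1.39 in the main fit), and called Ticam1 in ELS mice (1.537, adjusted p = 0.0440), as did 7 further alternatives at log2 fold changes from 1.482 to 1.555 (main fit 1.53, adjusted p = 0.0503).

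Counts over all genes that differed by more than 1.5 times from the main fit were as follows. For ELS after PBS the main fit called 28 genes, the edgeR likelihood-ratio test 215, DESeq2 178, RLE factors 6, no filter 2, and only the groups compared and limma voom 0 each. For age by ELS the main fit called 5, the likelihood-ratio test 29, DESeq2 20, the stricter filter 3, and only the groups compared, limma voom and the fit without libraries under 16000 genes 0 each. For LPS by ELS the main fit called 0, the likelihood-ratio test 66 and DESeq2 15; for ELS after LPS 0, 10 and 2; for ELS at P9 the main fit called 0 and the likelihood-ratio test 1. For LPS in ELS the main fit called 2059, and 3536 without the libraries under 16000 genes. With DESeq2 and its size factors the split of higher against lower was 112 and 66 for ELS after PBS (21 and 7 in the main fit), and 12 and 8 for age by ELS (5 and 0).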
